A study of Homo sapiens with 72 samples.

Results

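Unstressed U2OS cells that carry a knockout of G3BP1 and G3BP2 were compared with wild-type U2OS cells across all genes. U2OS is an established human osteosarcoma line. The comparison took every Ensembl gene row of the authors' deposited table for these groups, 61541 genes in all, after 4 summary rows had been dropped. It rests on 4 of the 72 libraries of the series, 2 of each genotype, and the labels give no treatment for either group. The remaining libraries served RNA editing assays, immunoprecipitation of RNA with G3BP1, and a second knockout experiment with arsenite. Of these, the text also uses knockout cells transfected with a G3BP1 transgene 24 h before harvest, with 2 libraries in the first experiment and 2 in the second, and the second experiment's own 2 untreated knockout libraries. It further uses 3 immunoprecipitates and 3 inputs from FlpIn 293 Trex embryonic kidney cells that express FLAG-G3BP1 after tetracycline. Whether the knockout line is 1 clone, how the genes were edited and whether libraries came from separate cultures are not given in the sources used here. The p-values therefore measure the spread between these libraries, which may be technical, and a difference between the lines cannot be told apart from the loss of G3BP.

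G3BP1 and G3BP2 are closely related RNA-binding proteins of the cytoplasm. When translation initiation stops and mRNAs leave polysomes, they condense with these mRNAs and with partners such as CAPRIN1, UBAP2L and TIA1 into stress granules, and cells without both proteins fail to form the granules after arsenite. G3BP1 has further been linked to RNA sensing, mRNA decay and the anchoring of TSC at lysosomes. U2OS is a standard line for studying these granules, and a double knockout is the usual null background into which G3BP1 variants are put back.

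The knockout and wild-type libraries held 38590157 to 52470072 reads assigned to genes. The 2 libraries of a genotype were close: among genes with at least 1000 reads the SD of the log2 difference between them was 0.082 in knockout and 0.084 in wild type. G3BP1 stood at 12319 and 12284 in knockout and 18582 and 17702 in wild type, in reads normalised by the authors' size factors, and this unit holds for all levels below. The log2 fold change of knockout over wild type in the authors' deposited table was -0.56 ± 0.048 (SE; adjusted p 1.01e-29). G3BP2 was at 6448 and 6237 in knockout and 8423 and 7919 in wild type, and its deposited log2 fold change was -0.36 ± 0.057 in the authors' deposited table (adjusted p 1.27e-09; 0.0577 in a limma fit without knockout library b). Both transcripts were thus lower in each knockout library than in each wild-type library, and still abundant. A count over the whole gene does not show whether the reading frame is intact, so it checks the genotype only in part.

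Of 25724 genes tested, the authors' deposited table had 9729 at an adjusted p under 0.05 (37.8%), and these are the calls used throughout. They split into 4742 genes higher in knockout (18.4%) and 4987 lower (19.4%), and 3205 genes (12.5%) were called with an absolute log2 fold change of at least 1. Among the 13774 tested genes whose base mean reached 100 normalised reads, 8019 were called (58.2%), 3825 higher (27.8%) and 4194 lower (30.4%). Most expressed genes therefore pass, and the counts of the gene groups below have to be read against these shares. The median log2 fold change over all tested genes was 0.01. Calls depended on the spread assumed: with the Wald statistics divided by their robust spread of 2.35, 3432 genes were left, and limma fits that left out knockout library a or b gave 6223 and 6288. None of the 9729 calls had the opposite sign in any of the alternatives run. Alternatives that changed only a threshold, a filter or the spread kept the deposited sign by construction, and the limma fits reused the same libraries. Libraries differed in the share of reads from mitochondrially encoded genes, at 11.3% and 11.0% in knockout against 7.49% and 7.85% in wild type, and the part of this in the results was not tested.

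**Figure D1:**
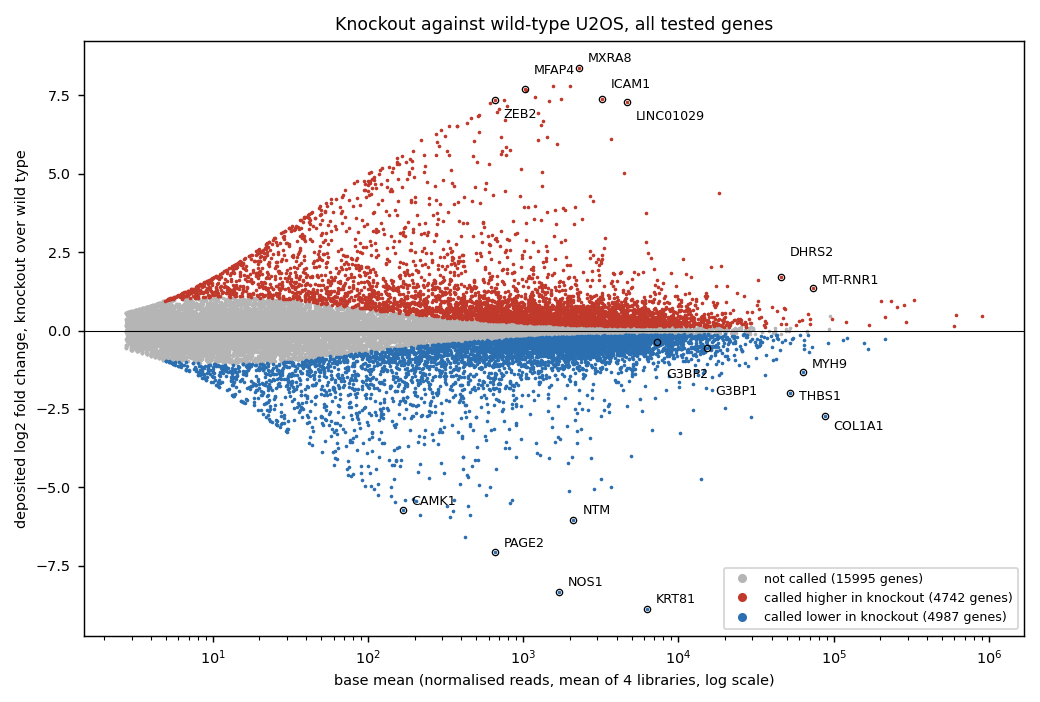
Deposited log2 fold change of knockout over wild type (y axis) against base mean in normalised reads on a log scale (x axis) for the 25724 tested genes, with 4742 called higher in red and 4987 called lower in blue. Changes of more than 7 on the log2 scale are found for abundant genes too, such as MXRA8 and KRT81.

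The largest changes were those of genes read in one genotype and nearly silent in the other. MXRA8, a cell-surface protein of the immunoglobulin family and a receptor of arthritogenic alphaviruses, measured 4673 and 4487 in knockout and 5.95 and 6.08 in wild type. ICAM1, an adhesion molecule that leukocytes bind, stood at 6509 and 6235 in knockout and 30.7 and 30.4 in wild type. ICAM1 was thus 209-fold higher in knockout, and neither knockout library came near a wild-type value. The authors' deposited table gave log2 fold changes of 8.38 ± 0.262 for MXRA8 and 7.39 ± 0.173 for ICAM1. ZEB2, a transcriptional repressor known for its part in epithelial-mesenchymal transition, went from 2 reads in the wild-type libraries to 2674 in the knockout libraries, a ratio of 1305 with a 95% counting interval of 361 to 10778. This interval covers counting error only. The other genes among the 10 highest were MAGEA10, a cancer-testis antigen, MFAP4, a microfibril-associated matrix protein, BASP1, a membrane-bound signalling protein of neurons, the pseudogene ANKRD20A19P, and the noncoding RNAs AFAP1-AS1, LINC01476 and LINC01029. Their log2 fold changes ran from 7.29 for LINC01029 to 7.81 for MAGEA10 in the authors' deposited table. LINC01029 was the most abundant of them, at 9321 and 9323 in knockout and 6.94 and 19.3 in wild type. Reads of MAGEA10 and of ANKRD20A19P are shared in part with near-identical copies, which leaves their own levels uncertain.

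At the other end, KRT81, a hair keratin, was at 18.0 and 19.3 in knockout and 13175 and 11868 in wild type. This was a fall of 671-fold, the lowest log2 fold change in the authors' deposited table among genes of this abundance (-8.86 ± 0.196); KRT81 is nearly identical to other hair keratins, and its reads may be shared with them. NOS1, the neuronal nitric oxide synthase, measured 2.58 and 3.40 in knockout and 3544 and 3222 in wild type. NTM, a neuronal adhesion molecule anchored in the membrane, stood at 55.0 and 59.0 in knockout and 4188 and 4124 in wild type. CAMK1, a calcium/calmodulin-dependent kinase, had no read in either knockout library and 329 and 339 normalised reads in wild type. The next lowest were the cancer-testis gene PAGE2, whose reads are shared with its copies, DPYSL5, a protein of neuronal growth cones, the adenylate kinase AK5, the hair keratin-associated KRTAP2-3, and the noncoding RNAs LINC02901 and LINC00221. Their log2 fold changes ran, in the authors' deposited table, from -7.07 for PAGE2 to -5.77 for AK5. Fitted values of genes with so few reads in one genotype depend on the fit and are no bounds. LINC00221 had 2 reads in knockout, a ratio of 442 with a counting interval of 122 to 3658. All 20 of these genes kept their calls in limma fits that left out each library in turn.

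**Figure D2:**
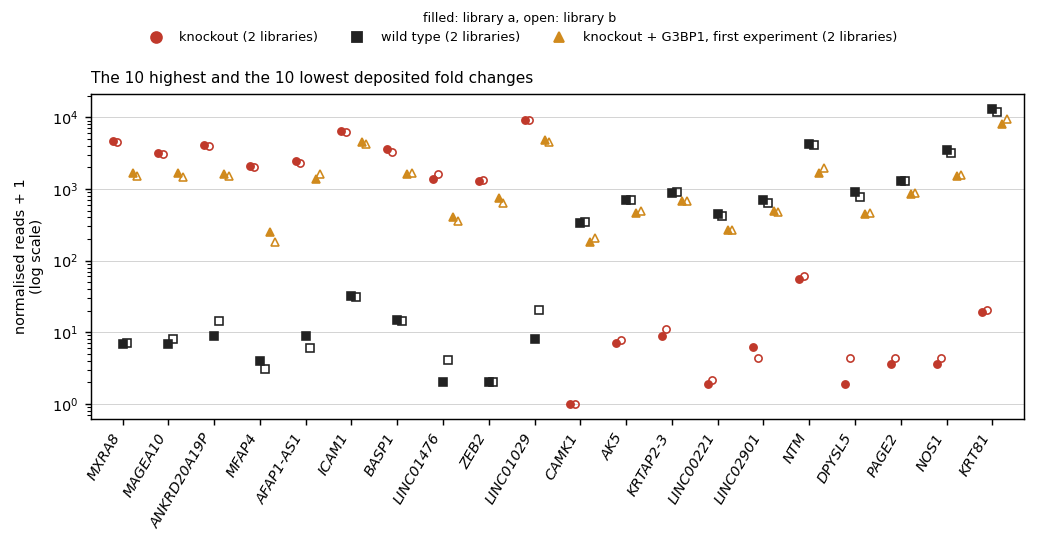
Normalised reads plus 1 on a log scale (y axis) in each library for the 10 genes with the highest and the 10 with the lowest deposited log2 fold change among called genes whose base mean reached 100 and that have a symbol (x axis). Knockout (red circles) and wild type (black squares) do not overlap for any of the 20, and the knockout cells transfected with G3BP1 in the first experiment (orange triangles) lie between them for each.

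Abundant transcripts moved as well. COL1A1, the main chain of fibrillar collagen in bone, was at 23333 and 22345 in knockout and 156879 and 147086 in wild type, a fall of 6.65-fold. THBS1, a matrix glycoprotein that activates TGF-beta, measured 20681 and 21096 in knockout and 84806 and 81696 in wild type. MYH9, the heavy chain of nonmuscle myosin, stood at 37638 and 35019 in knockout and 95589 and 84956 in wild type. These 3 genes were lower in each knockout library than in each wild-type library. DHRS2, a dehydrogenase, was at 71705 and 67755 in knockout and 22042 and 20970.3 in wild type, and the mitochondrial ribosomal RNA MT-RNR1 at 109225 and 102768 in knockout and 41322 and 41081 in wild type. The deposited log2 fold changes of these last 2 were 1.69 and 1.36 in the authors' deposited table, and both were higher in each knockout library.

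Partners of G3BP in stress granules changed little. Of 28 tested members of a list of granule proteins, 10 were called higher and 5 lower, and the median log2 fold change was 0.08 in the authors' deposited table. The counts fell to between 4 and 5 higher and between 1 and 4 lower in limma fits without 1 library, and the lower end came without a knockout library. ATXN2L, an ataxin-related protein of granules, was the highest at 13946 and 14378 in knockout and 8332 and 8814 in wild type, and TARDBP, which encodes TDP-43, the lowest of the called members at 8092 and 8118 in knockout and 10375 and 10363 in wild type. Log2 fold changes were 0.72 and -0.35 in the authors' deposited table. CAPRIN1 and USP10, the direct binding partners of G3BP, were not called (CAPRIN1 -0.09 ± 0.049, USP10 0.10 ± 0.060 in the authors' deposited table), and UBAP2L, which also binds G3BP, was called at 0.37; these 3 were chosen after their values were seen. Among 35 tested factors of mRNA decay, 6 were called higher and 14 lower. SMG1, the kinase of nonsense-mediated decay, had the highest value, 0.74, and UPF3A, a cofactor of the same pathway, the lowest, -0.88, in the authors' deposited table. Without 1 library the count of lower decay factors was between 8 and 10. SMG1 has many near-identical pseudogene copies, so its reads are uncertain.

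Interferon-stimulated genes are induced through a complex with STAT2 and IRF9 bound at interferon-stimulated response elements, and many encode proteins that bind viral RNA or act on it. Of 39 tested members, 21 were called higher and 5 lower, with a median log2 fold change of 0.74 in the authors' deposited table. XAF1, a proapoptotic protein, had the highest value: 351 and 394 in knockout and 1.98 and 2.03 in wild type. IRF1, a transcription factor of the pathway, was the called member that rose least, at 657 and 754 in knockout and 548 and 525 in wild type. Chosen after their values were seen, HERC5, the ligase that attaches ISG15, measured 209 and 199 in knockout and 1.98 and 1.01 in wild type, and OAS3, which makes the second messenger of RNase L, at 4787 and 4458 in knockout and 814 and 742 in wild type. PARP14, PARP9 and DTX3L, which act in ADP-ribosylation and were likewise chosen afterwards, also rose, with 8549 and 8599 in knockout and 2529.8 and 2309.5 in wild type for PARP14. IFI27 was the lowest at 21.5 and 27.2 in knockout and 66.4 and 81.1 in wild type, and STAT2 was the lower member that moved least (-0.19 in the authors' deposited table). The group did not move as a whole: IFIT1, TRIM22 and IFIT5 were also lower, and IFIT2, IFIT3, IFITM3 and RSAD2 were among those not called. Leaving out 1 library gave 18 to 20 higher and 3 to 4 lower; IFI27, IRF1 and STAT2 each lost their call in 3 of these 4 limma fits, with adjusted p up to 0.0668, 0.0931 and 0.0725.

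Sensors of nucleic acids, which start the interferon response, were counted separately. Of 13 tested, 8 were called higher and 2 lower, and 5 to 7 were higher in limma fits without 1 library. IFIH1, the cytosolic sensor of long double-stranded RNA, stood at 945 and 963 in knockout and 126 and 129.7 in wild type. Chosen after their values were seen, TLR3, the endosomal sensor of double-stranded RNA, was at 243 and 192 in knockout and 43.6 and 41.5 in wild type, and STING1, the adaptor of DNA sensing, at 398 and 393 in knockout and 135 and 131 in wild type. In the authors' deposited table these 3 changes were 2.82, 2.11 and 1.50 on the log2 scale. TLR3 lies in a run of neighbouring genes, TLL1 to FRG1, that were all higher and are described below. ADAR, the editor of double-stranded RNA, rose least of the called members (0.15, called in none of the 4 limma fits without 1 library), and TRIM25, a cofactor of RIG-I, and IRF3, the factor that sensors activate, were lower (-0.52 and -0.35) in the authors' deposited table. RIGI itself, with a deposited log2 fold change of 0.27 in the authors' deposited table, was not called.

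The antigen presentation list holds genes of MHC class I and also butyrophilin genes such as BTN3A3. Its members were higher with few exceptions, 15 of 18 tested being called higher and 2 lower. PSMB9, a catalytic subunit of the immunoproteasome, measured 871 and 729.5 in knockout and 57.5 and 75.0 in wild type. Its log2 fold change was 3.43 ± 0.191 in the authors' deposited table (adjusted p 5.20e-70). B2M, the light chain of class I, was the member that rose least, at 14874 and 13955 in knockout and 12657 and 12369.6 in wild type, and was called in none of the 4 limma fits without 1 library. The butyrophilins BTN3A1, BTN3A2 and BTN3A3, which act on gamma delta T cells, rose by 2.50, 2.73 and 3.07 on the log2 scale in the authors' deposited table. The peptide trimming enzyme ERAP1 rose by 2.27 there. These 4 were chosen after their values were seen. HLA-F (-0.55) and HLA-E (-0.37) were the exceptions in the authors' deposited table, and neither was called in limma without knockout library b. Reads of the HLA genes and of the BTN3A genes may be shared between their copies.

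The response element was looked for as GAAANNGAAA, on both strands, in promoter windows of RefSeq (GRCh38.p14) that span 250 bases before to 50 after the start of a gene. It occurred in 3.65% of 27305 such windows and in 2.84% of 13814 windows of tested genes. Of the interferon-stimulated genes called higher, 20 had a window and 13 of these held the letters (65%), and so did 3 of the 4 windows of members called lower. For antigen presentation, 6 of 12 windows of genes called higher held them, and for sensors 2 of 5. A match is a description of the letters and shows neither binding nor a cause. The 250 bases before the start are given for 3 members that differ in distance and number of matches, 5′ to 3′ on the strand of the gene, with the matches in capitals and read on either strand. HERC5 is at chr4:88456869-88457118 on the plus strand, OAS3 at chr12:112938224-112938473 on the plus strand and IFIH1 at chr2:162318685-162318934 on the minus strand.
HERC5: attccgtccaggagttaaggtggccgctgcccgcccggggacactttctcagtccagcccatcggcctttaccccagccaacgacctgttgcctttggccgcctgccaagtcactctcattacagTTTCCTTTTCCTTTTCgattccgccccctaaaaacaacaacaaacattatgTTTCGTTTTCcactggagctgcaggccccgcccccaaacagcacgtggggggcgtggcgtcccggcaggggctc
OAS3: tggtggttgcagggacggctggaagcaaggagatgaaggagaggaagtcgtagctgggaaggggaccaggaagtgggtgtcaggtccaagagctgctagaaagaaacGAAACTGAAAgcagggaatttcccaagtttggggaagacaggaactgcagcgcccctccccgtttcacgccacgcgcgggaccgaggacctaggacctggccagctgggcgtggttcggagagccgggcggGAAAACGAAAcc
IFIH1: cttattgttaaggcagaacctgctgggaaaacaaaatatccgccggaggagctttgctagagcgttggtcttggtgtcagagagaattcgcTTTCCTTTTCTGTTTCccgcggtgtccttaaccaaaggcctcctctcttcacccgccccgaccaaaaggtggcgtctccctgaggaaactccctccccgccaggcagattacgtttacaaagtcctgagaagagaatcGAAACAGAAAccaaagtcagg
HERC5 held 3 matches, of which 2 overlap, all read on the opposite strand, and OAS3 held 2, both on the strand of the gene. IFIH1 held 3, an overlapping pair on the opposite strand and 1 near the start on its own strand.

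NF-kappaB is held in the cytoplasm by inhibitors such as NFKBIA and released by 2 routes, a canonical one that acts on RELA and a noncanonical one in which the kinase MAP3K14 drives the processing of NFKB2, the partner of RELB. TRAF3 and BIRC2 keep the MAP3K14 protein low in unstimulated cells, and proteins were not measured in these libraries. Of 23 tested targets of the pathway, 13 were called higher and 5 lower, with a median of 1.02, and limma fits without 1 library gave 13 to 14 higher and 5 lower. ICAM1 was the highest, as given above. Chosen after their values were seen, TRAF1, a signalling adaptor, stood at 2486 and 2701 in knockout and 75.3 and 64.9 in wild type. BIRC3, a ubiquitin ligase of the pathway, was at 8420.1 and 8971 in knockout and 245 and 275 in wild type, and IL32, a cytokine, at 5163 and 5054 in knockout and 244 and 262 in wild type. Of the subunits and inhibitors, likewise chosen afterwards, NFKB2 was at 13900.1 and 14131 in knockout and 3900.2 and 3976 in wild type, RELB at 2202 and 2193 in knockout and 532 and 540.1 in wild type and the inhibitor NFKBIE at 1719.6 and 1757 in knockout and 307 and 275 in wild type. On the log2 scale, the authors' deposited table gave 1.83 for NFKB2, 2.01 for RELB, 2.54 for NFKBIE, 1.12 for NFKBIA and 0.93 for NFKB1. CSF1, the macrophage growth factor, was the member that rose least, at 837 and 816 in knockout and 511 and 521 in wild type. CXCL8, CCL20, IL11 and LIF, which are secreted, were called lower, LIF least with -0.49 in the authors' deposited table, and IL6, CCL2 and CSF2 were not called. CXCL8 had 0 and 1.13 normalised reads in knockout and 29.7 and 34.5 in wild type.

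The kappaB letters GGGNNTTTCC, read on both strands of the same windows, occurred in 1.92% of all promoters and in 2.11% of those of tested genes. Among NF-kappaB targets, 5 of the 9 windows of members called higher held them, and 1 of the 4 windows of members called lower. BIRC3 is shown at chr11:102317234-102317483 and IL32 at chr16:3065153-3065402, both on the plus strand, as members whose levels were among those that differed most.
BIRC3: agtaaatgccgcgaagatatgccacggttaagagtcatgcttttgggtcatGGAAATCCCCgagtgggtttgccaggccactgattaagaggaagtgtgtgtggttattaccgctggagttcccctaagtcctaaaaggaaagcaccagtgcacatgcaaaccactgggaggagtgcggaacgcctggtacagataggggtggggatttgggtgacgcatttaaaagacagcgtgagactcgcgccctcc
IL32: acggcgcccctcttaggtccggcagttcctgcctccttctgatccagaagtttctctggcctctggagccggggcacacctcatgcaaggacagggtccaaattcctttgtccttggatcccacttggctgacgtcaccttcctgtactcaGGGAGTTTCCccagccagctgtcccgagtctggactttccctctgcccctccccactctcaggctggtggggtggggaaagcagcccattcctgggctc
The capitals mark the matches, on either strand, within the 250 bases before the start.

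TNFAIP2, the lowest of the NF-kappaB targets, measured 34.4 and 47.7 in knockout and 749 and 797 in wild type. Its neighbours in the RefSeq gene order, chosen after their values were seen, were as low: TRAF3 stood at 25.8 and 32.9 in knockout and 1638 and 1592 in wild type, and CDC42BPB, a kinase that acts on myosin, at 222 and 209 in knockout and 7352 and 6883 in wild type. The authors' deposited table gave -5.51 ± 0.195 on the log2 scale for TRAF3, -4.99 ± 0.094 for CDC42BPB and -4.02 ± 0.205 for TNFAIP2. The nearest genes of similar abundance on either side, RCOR1 and EIF5, were at 1155 and 1169 in knockout and 1935 and 1886 in wild type and at 4813 and 4455 in knockout and 7474 and 7145 in wild type, far less reduced. Of other genes of the noncanonical route, chosen after their values were seen, MAP3K14 was at 3295 and 3332 in knockout and 2289 and 2408 in wild type, TRAF2 at 2259 and 2225 in knockout and 1252 and 1160.3 in wild type and BIRC2 at 3387 and 3365 in knockout and 2207 and 2236 in wild type, and CHUK was not called (adjusted p 0.465). In the first experiment's G3BP1-transfected knockout cells TRAF3 was at 894 and 928. In the second experiment, whose knockout and transfected libraries are separate, TRAF3 had a base mean of only 17.6 normalised reads and a log2 fold change of transfected over knockout cells of -0.07 in the authors' deposited table.

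**Figure D3:**
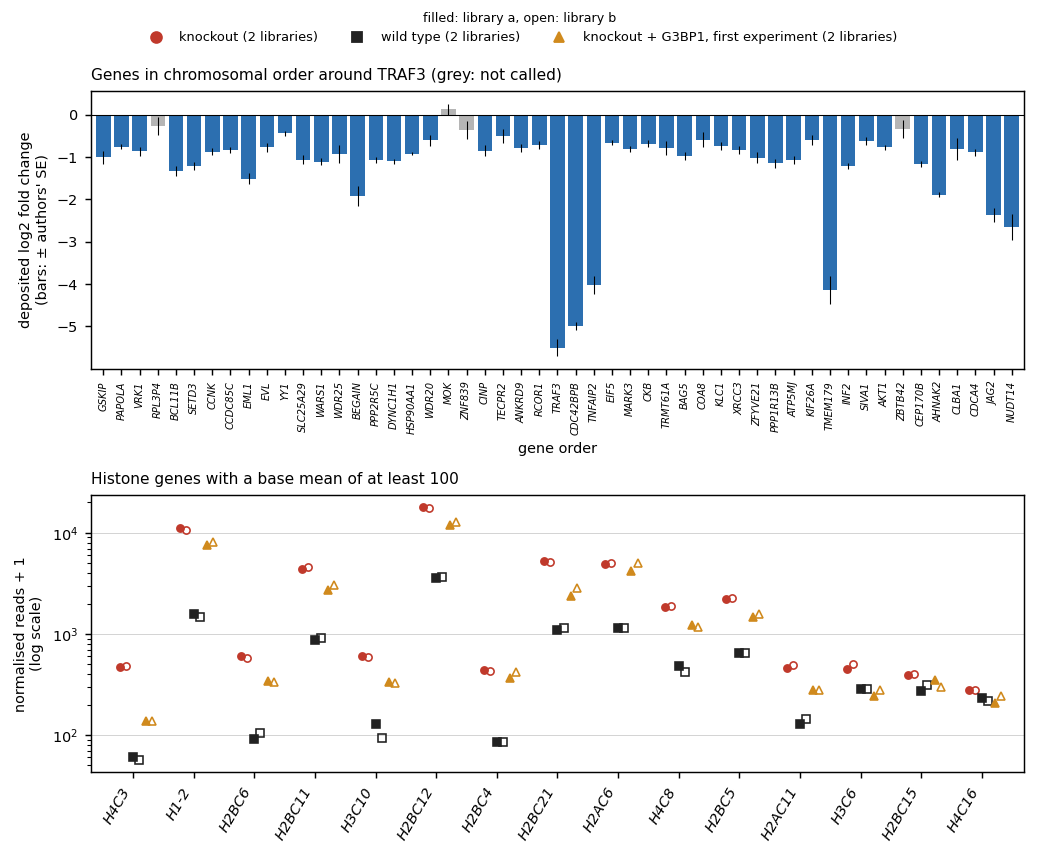
Upper panel: deposited log2 fold change with the authors' SE (y axis) for genes in RefSeq order around TRAF3 (x axis), grey where not called; TRAF3, CDC42BPB and TNFAIP2 lie between -4.02 and -5.51 while their neighbours lie mostly between 0 and -2. Lower panel: normalised reads plus 1 on a log scale (y axis) of histone genes whose base mean reached 100 (x axis) in each knockout, wild-type and first-experiment G3BP1-transfected library.

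Runs of neighbouring genes with the same sign were counted. Among 13052 genes of this abundance (base mean of 100 or more) that could be placed in RefSeq order, runs of neighbours with the same sign had a median length of 2. There were 26 runs of at least 20 genes, which held 735 genes (5.63%). The longest, from FOXN3 to WDR20, held 56 genes, all lower and 52 of them called, with a median log2 fold change of -0.93 in the authors' deposited table. It was separated by MOK alone (0.14, not called) from a run of 39 lower genes, ZNF839 to LINC00221, 37 of them called, with a median of -0.82, which holds the TRAF3 group. A run of 52 genes from TLL1 to FRG1, among them TLR3, was higher, and 49 of its genes were called. Its median was 1.02 in the authors' deposited table. Another of 39 genes from NPIPB4 to SH2B1, among them NUPR1 and ATXN2L, was higher with a median of 0.67. PDCD5 to ALKBH6 (43 genes) and SDK2 to WBP2 (36 genes, among them ITGB4 and FDXR) were lower, with medians of -0.63 and -0.70 in the authors' deposited table. DNA copy number was not measured in these libraries, and its part in the runs was not tested.

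Blocks of at least 3 neighbours that each moved by at least 2 on the log2 scale numbered 4. One was the TRAF3 group. A second held FBXL13, LRRC17 and NFE4, which rose. FBXL13 was at 1871 and 1925 in knockout and 121 and 110.5 in wild type. LRRC17, which lies within FBXL13, was at 1454 and 1389.8 in knockout and 223 and 237 in wild type. Since it is not known whether the counting used strand, reads of FBXL13 and LRRC17 may be mixed. Another held 7 genes of the TAF11-like and H3-like copies, which were lower and whose reads cannot be assigned to single copies. The last held the histone genes H1-2, H4C3, H2BC4 and H2AC6, with log2 fold changes from 2.10 to 2.87 in the authors' deposited table.

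Replication-dependent histone mRNAs normally end in a stem-loop without a poly(A) tail, so a library made from poly(A) RNA sees only their polyadenylated forms. This list was drawn after the histone block had been seen. Of 40 tested histone genes, 24 were called higher and none lower, with a median log2 fold change of 1.09 in the authors' deposited table. Their summed normalised reads were 52466 and 52083 in knockout, 11028 and 11098 in wild type, and 34513 and 37761 in the G3BP1-transfected cells of the first experiment. H2BC12 alone measured 17856 and 17604 in knockout and 3542 and 3655 in wild type, and the linker histone H1-2 at 11058 and 10724 in knockout and 1569.6 and 1477 in wild type. Histone genes are near-identical within a class, so single members are less certain than the sum. The amount of stem-loop histone mRNA is not visible here, and the state of the tails was not tested.

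Extracellular matrix genes moved in both directions, with large values on either side. Of 34 tested collagen chains, 12 were called higher and 11 lower, and the median was 0.00. COL3A1, a fibrillar collagen of soft tissue, stood at 36137 and 33265 in knockout and 1663 and 1628 in wild type. COL6A1, chosen after its values were seen, rose to 31340.0 and 29757 from 7363 and 7135. COL11A1, a cartilage collagen, was at 109 and 99.8 in knockout and 3914 and 3829 in wild type, and COL1A1 fell as given above. The deposited log2 fold changes of COL3A1 and COL11A1 were 4.38 and -5.11 in the authors' deposited table. COL1A2, the partner chain of COL1A1, was at 12.9 and 7.94 in knockout and 28.7 and 20.3 in wild type and was not called. COL17A1 and COL4A1 were the called members nearest to 0 (0.40 and -0.49 in the authors' deposited table), and both lost calls in limma fits without 1 library: COL17A1 in 3 of the 4, with adjusted p up to 0.190 without knockout library b, and COL4A1 in 1, with 0.0564 without that library.

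Of 32 tested matrix proteins, 10 were called higher and 16 lower. Besides MXRA8, the bone glycoprotein SPP1 was high, at 2369 and 2113 in knockout and 144 and 128 in wild type. The small leucine-rich proteoglycan LUM, chosen after its values were seen, measured 1474 and 1373 in knockout and 11.9 and 14.2 in wild type. CCN4, a matricellular target of Wnt signalling, stood at 7.73 and 12.5 in knockout and 304 and 283 in wild type. FN1, fibronectin, chosen after its values were seen, fell to 7703 and 7428 from 53266 and 48962. SPARC and LAMC1 changed least of the called members, with -0.14 and 0.25 in the authors' deposited table. Of 30 tested matrix proteases and inhibitors, 11 were called higher and 12 lower. MMP9, a gelatinase, was at 2872 and 3103 in knockout and 202 and 199.6 in wild type, and ADAMTS15, an aggrecanase-like protease, at 172 and 142 in knockout and 1529 and 1381 in wild type. The protease PLAU, chosen after its values were seen, was lower (-2.49 in the authors' deposited table).

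**Figure D4:**
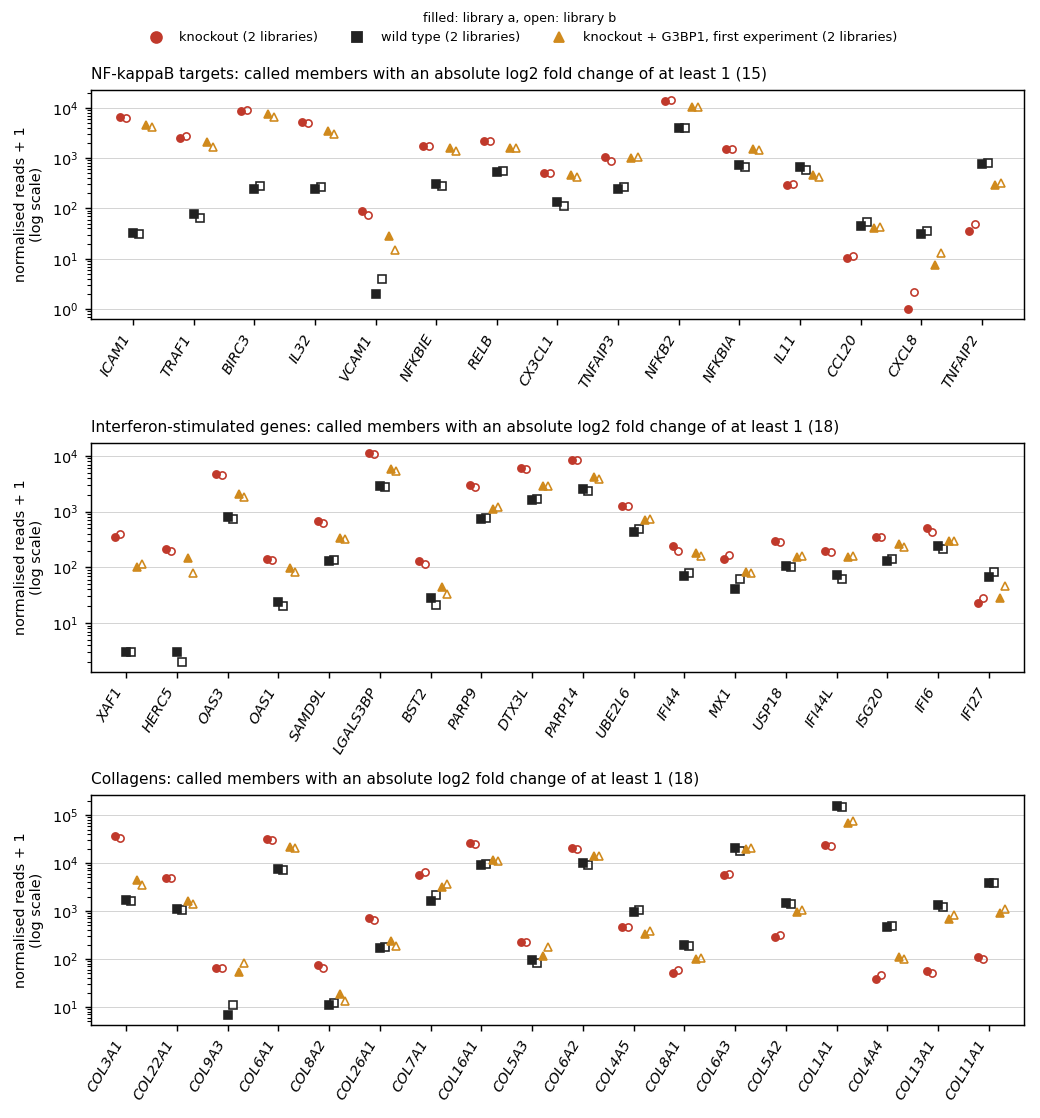
Normalised reads plus 1 on a log scale (y axis) in each library for the called members of 3 lists with an absolute log2 fold change of at least 1 (x axis): 15 NF-kappaB targets, 18 interferon-stimulated genes and 18 collagens. Knockout (red circles) and wild-type (black squares) libraries do not overlap for any member shown, and the interferon-stimulated genes are higher in knockout apart from IFI27.

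Receptors that hold cells to the matrix and to each other were lower more often than higher. Of 19 tested integrin chains, 4 were called higher and 11 lower, with a median of -0.48. ITGB4, a chain of the laminin receptor of hemidesmosomes, measured 545 and 482 in knockout and 3931 and 3733 in wild type, and ITGA7, a laminin receptor of muscle, was the highest at 3536 and 3649.8 in knockout and 1564 and 1604 in wild type. ITGAV and ITGB8, which form a receptor together, were the called members that moved least (0.16 and -0.29 in the authors' deposited table). Of 15 tested cadherins, 2 were called higher and 8 lower, with a median of -1.28. CDH4, retinal cadherin, stood at 228 and 175 in knockout and 6366 and 5916 in wild type, and CDH2, neural cadherin, at 7864 and 7335 in knockout and 18772 and 18156 in wild type. CDH8 was the highest at 234 and 267 in knockout and 67.4 and 66.9 in wild type. The deposited log2 fold changes of CDH4 and CDH8 were -4.73 and 1.75 in the authors' deposited table. Limma fits without 1 library gave 8 to 11 lower integrins, 8 to 9 lower cadherins and 1 to 2 higher cadherins.

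Keratins were few and, apart from KRT8, lower or not called: 1 of 15 was higher and 7 lower. KRT8, a keratin of simple epithelia, was at 19228 and 18514 in knockout and 17254 and 16028 in wild type, and its partner KRT18 at 7406 and 7275 in knockout and 10314 and 9424 in wild type. Limma fits without 1 library gave 0 to 1 higher and 3 to 5 lower keratins; KRT8 lost its call in 3 of these 4 fits and KRT18 in 2. Markers of cell types were read in the same way. CD3E and PF4, of T cells and platelets, had no read in any of the 4 libraries, and the summed level of the 10 immune markers was 1413 and 1507 in knockout against 86.2 and 85.1 in wild type. Nearly all of this was ITGAM, an integrin chain of myeloid cells, at 1386 and 1476 in knockout and 20.8 and 20.3 in wild type, while PTPRC, the pan-leukocyte marker, was called lower, at 0.859 and 2.27 in knockout and 40.6 and 41.5 in wild type. Of 9 tested epithelial markers, 3 were called higher, 1 lower and 5 not called. CLDN4, a tight junction claudin, was at 3614 and 3223 in knockout and 231 and 206 in wild type. EPCAM was not called, at 413 and 402 in knockout and 540.0 and 457 in wild type. Nor was CDH1, at 25.8 and 13.6 in knockout and 34.7 and 37.5 in wild type. KRT19, CLDN3, CLDN7 and GRHL2 had at most 2.27 normalised reads in any of the 4 libraries. Mesenchymal markers were called higher 3 times and lower 8 times of 14: VIM measured 60406 and 57482 in knockout and 87940.1 and 83733 in wild type, CDH11 at 125 and 101 in knockout and 1458 and 1402 in wild type and S100A4 at 736 and 685 in knockout and 262 and 284 in wild type. No marker of neurons was called higher among 11 tested, and 4 were lower, NOS1 most and NEFL, a neurofilament, least (-0.62 in the authors' deposited table). In these bulk samples fewer cells of a type and less RNA per cell cannot be told apart.

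The labelled identity of the line, bone osteosarcoma, was visible in part. Of 14 tested osteoblast genes, 3 were called higher and 6 lower. RUNX2, the factor that sets the lineage, stood at 497 and 521 in knockout and 1345 and 1335 in wild type, and ALPL, the phosphatase of mineralising bone, at 726 and 712 in knockout and 62.4 and 50.7 in wild type; both were chosen after their values were seen. BMP2, a bone-inducing growth factor, was at 459.5 and 487 in knockout and 286 and 225 in wild type. SP7, a factor of osteoblast commitment, was near 0 at 0.859 and 2.27 in knockout and 0 and 1.01 in wild type, and so was DMP1, a matrix protein of osteocytes, at 0.859 and 0 in knockout and 2.97 and 1.01 in wild type. PHEX, a protease of osteoblasts and osteocytes, was read at 12.2 to 44.6 in the 4 libraries and was not called; these 3 were chosen after their values were seen. Among developmental genes, 4 of 36 HOX genes were called higher and 9 lower, from HOXB2 (-1.46) to HOXB9 (0.69) in the authors' deposited table. Of 23 tested cancer-testis genes, 7 were called higher and 8 lower, between PAGE2 and MAGEA10; XAGE2, with 1.20 in the authors' deposited table, lost its call in 2 of the 4 limma fits that left out a library, which gave 4 to 8 lower members.

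Growth factors and their receptors were called lower 24 times and higher 10 times of 50, with a median of -0.37, and 20 to 23 were lower in limma without 1 library. PDGFB, a platelet-derived growth factor, measured 14.6 and 23.8 in knockout and 761 and 757 in wild type, and DDR2, a collagen-binding receptor kinase, at 3633 and 3315 in knockout and 247 and 221 in wild type. Chosen after their values were seen, the platelet-derived growth factor receptors moved in opposite directions, with PDGFRA at 58.4 and 55.6 in knockout and 234 and 253 in wild type and PDGFRB at 3381 and 3221 in knockout and 419 and 461 in wild type. The log2 fold changes were -4.91, 3.84, -1.92 and 2.88, in that order, in the authors' deposited table. Of 7 tested genes named for binding insulin-like growth factors or their mRNA, 2 were called higher and 4 lower. The oncofetal RNA-binding proteins IGF2BP1 and IGF2BP3 both rose, IGF2BP1 to 5384 and 5269 from 293 and 304 and IGF2BP3 to 886 and 893 from 45.6 and 42.6. IGF2BP2, the paralog that remains in many adult tissues, was lower, at 7486 and 7312 in knockout and 10381 and 9918 in wild type, and the secreted IGFBP7 fell to 136 and 102 from 960.2 and 789.

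In the TGF-beta and BMP list, 7 of 31 members were called higher and 14 lower, and limma without 1 library gave 4 to 7 higher and 9 to 13 lower. The extremes were the activin subunit INHBA at 19079.5 and 18085 in knockout and 5754 and 5624 in wild type and the BMP antagonist NOG at 1079 and 945 in knockout and 6609 and 5747 in wild type. ID1, ID2, ID3 and ID4, direct targets of BMP signalling chosen after their values were seen, were all lower (-0.58, -1.21, -1.02 and -1.05 in the authors' deposited table), as was the ligand BMP4 (-2.40). SMAD2 and SMAD5, signal transducers of the 2 branches, moved least of the called members (0.23 and -0.20 in the authors' deposited table). Of 45 tested Wnt pathway genes, 14 were called higher and 13 lower. TCF7, a DNA-binding partner of beta-catenin, had 3 reads in the wild-type libraries and 1544 in the knockout libraries, a ratio of 502 with a counting interval of 172 to 2438. NKD2, an inhibitor of the pathway, stood at 8.59 and 5.67 in knockout and 93.1 and 93.2 in wild type. Of 16 tested YAP targets and partners, 4 were called higher and 8 lower: CCN2, the connective tissue growth factor, was at 6339 and 5761 in knockout and 34875 and 33034 in wild type, and TGFB2, the highest, at 24136 and 21762 in knockout and 12475 and 12421 in wild type.

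p53 targets were mostly lower. Of 26 tested, 19 were called lower and 1 higher, with a median of -0.36, and 14 to 19 were lower in limma without 1 library. FDXR, a mitochondrial ferredoxin reductase, fell most, to 1713 and 1736 from 3892 and 3839.8, and AEN, a nuclease of apoptosis, least of the called members, with -0.18 in the authors' deposited table. BBC3, the proapoptotic protein PUMA, was the member called higher, at 1211 and 1277 in knockout and 861 and 801 in wild type. CDKN1A, the cell cycle inhibitor p21, chosen after its values were seen, measured 8801 and 9173 in knockout and 14463 and 14145 in wild type. Its log2 fold change was -0.67 ± 0.050 in the authors' deposited table (adjusted p 2.21e-39).

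Cell cycle genes were called in both directions. Of 30 genes of G1/S and replication, 10 were called higher and 10 lower, from CCNE1 (-0.82), the cyclin that starts replication, to TYMS (1.43), thymidylate synthase, in the authors' deposited table. TYMS stood at 30097 and 29927 in knockout and 11270.5 and 10913 in wild type. Its antisense neighbour ENOSF1, which overlaps it and was chosen after its values were seen, was at 2446 and 2511 in knockout and 8.92 and 17.2 in wild type. The library kit keeps strand, but whether the counting used it is not given in the sources used here, so reads of these partners may be mixed. Of 26 genes of G2/M, 7 were called higher and 11 lower, from UBE2C (-1.53), a ubiquitin carrier of the anaphase complex, to NUSAP1 (0.73), a spindle protein, in the authors' deposited table. Without 1 library 5 to 10 G1/S genes were higher and 5 to 8 lower, and 3 to 6 G2/M genes were higher and 5 to 8 lower. NUSAP1 was called in none of these 4 limma fits, with adjusted p up to 0.117.

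Genes of cholesterol synthesis were mostly lower: of 20 tested, 14 were called lower and 2 higher, with a median of -0.49. HMGCS1, which makes the precursor of mevalonate, measured 7665 and 7189.6 in knockout and 14659 and 14681 in wild type, and SQLE, squalene epoxidase, fell least (-0.29 in the authors' deposited table). LSS, lanosterol synthase, was the highest of the called members, at 8673 and 8945 in knockout and 6311 and 6058 in wild type. Limma fits without 1 library gave 9 to 13 lower and 1 to 2 higher. Transcripts encoded by mitochondrial DNA were higher, 12 of 13 being called, with a median of 0.73. MT-ATP8, a subunit of ATP synthase, was at 41723 and 31555 in knockout and 16506 and 16639 in wild type, and MT-CO2, of cytochrome oxidase, was the member that rose least, at 330548 and 312229 in knockout and 262173 and 273866 in wild type. MT-ND6, the member encoded on the other strand from the rest, was lower, at 16681 and 14974 in knockout and 32281 and 28576 in wild type. Without knockout library a, 6 of the 12 were called higher in limma.

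Of 79 cytosolic ribosomal protein genes, 16 were called higher and 27 lower, with a median of -0.04, but limma without 1 library gave 3 to 11 higher and 8 to 18 lower. RPS15A was the highest at 3089.6 and 2892 in knockout and 1508 and 1493 in wild type, and RPL7A the lowest at 15168 and 14588 in knockout and 26535 and 25826 in wild type. Of 38 genes of lysosomes and TORC1 control, 17 were called higher and 9 lower, against 10 to 14 higher (10 without knockout library a) and 7 to 8 lower in limma without 1 library. GPNMB, a glycoprotein of lysosomes and melanosomes, rose to 5114 and 4616 from 1747 and 1832, and TFEB, the factor that drives lysosomal genes, fell to 173 and 157 from 495 and 448. MITF, a relative of TFEB chosen after its values were seen, rose, with 1.05 in the authors' deposited table. TSC1 was not called, and TSC2 was called higher, with 0.15 and 0.46 in the authors' deposited table.

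Stress response lists showed no common direction in these unstressed cells. Of 26 ATF4 targets, 4 were called higher (2 to 4 in limma without 1 library) and 11 lower, between WARS1, a tRNA synthetase at 1623 and 1577 in knockout and 3332 and 3592 in wild type, and NUPR1, a stress-induced nuclear protein at 627 and 564 in knockout and 135 and 131 in wild type. WARS1 lies in the run of lower neighbours from FOXN3 to WDR20, and NUPR1 in the run of higher neighbours from NPIPB4 to SH2B1. Of 19 cytosolic chaperones, 9 were called higher and 6 lower (3 to 6 in limma without 1 library), between HSPA6 (-0.96), a heat-inducible HSP70, and CRYAB (1.57), a small heat shock protein, in the authors' deposited table. HSP90AA1, in the same run as WARS1, and HSP90AB1, which encodes the other cytosolic HSP90, differed in sign (-0.91 and 0.28 in the authors' deposited table). Of 22 NRF2 and metal response genes, 6 were called higher and 8 lower, and limma without 1 library gave 2 to 5 higher and 3 to 5 lower. MT1G, a metallothionein, had 1 read in wild type and 287 in knockout, and AKR1C1, a reductase, measured 24.9 and 13.6 in knockout and 70.4 and 58.8 in wild type. MT1G shares reads with other metallothioneins, and AKR1C1, which lost its call in 3 of the 4 limma fits, with its paralogs. Of 27 immediate-early genes, 9 were called higher and 7 lower, with EGR2 at 218 and 212 in knockout and 17.8 and 16.2 in wild type and IER3 at 4283 and 4157 in knockout and 10180.5 and 9598 in wild type. Of 22 genes of DNA methylation and chromatin silencing, 7 were called higher and 4 lower, with 5 to 6 higher and 1 to 2 lower in limma without 1 library. DNMT3B, a de novo methyltransferase, was the highest member at 2749 and 2640.1 in knockout and 938 and 994 in wild type.

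**Figure D5:**
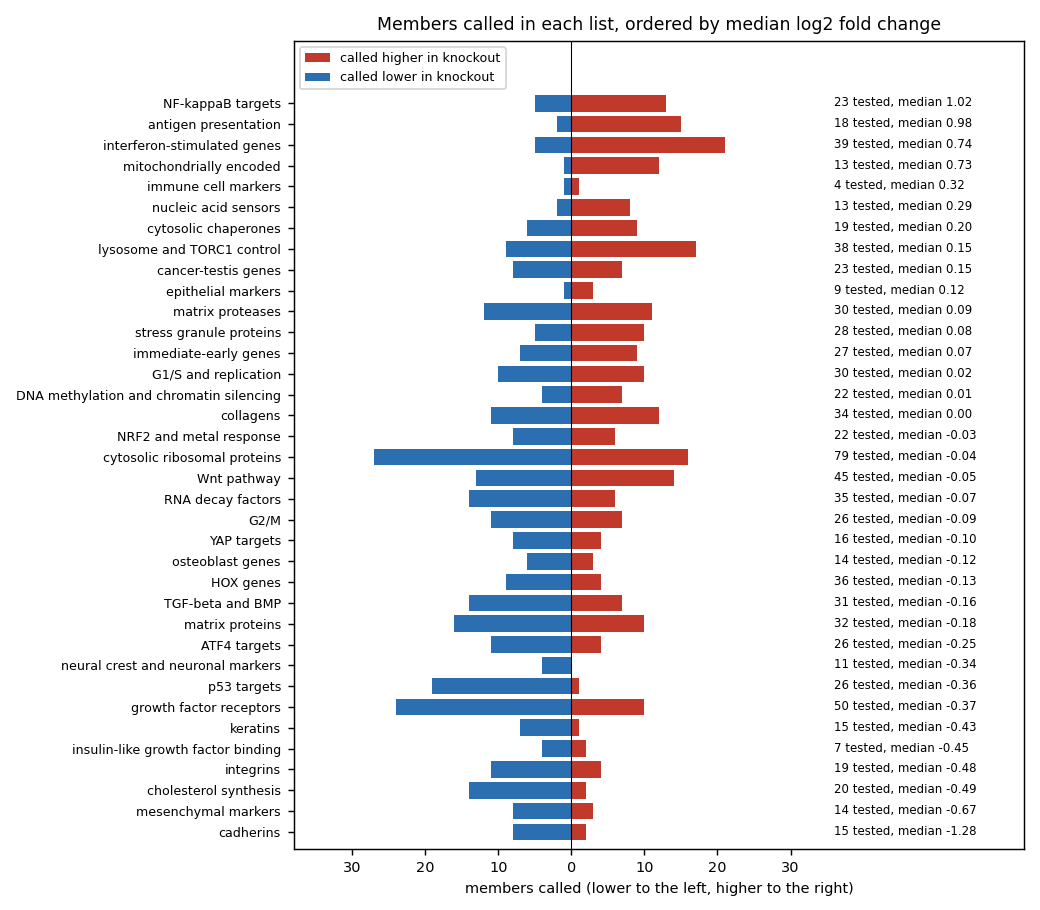
Number of members called lower (blue, to the left) and higher (red, to the right) in knockout (x axis) for each gene list (y axis), ordered by the median deposited log2 fold change printed at the right with the number tested. NF-kappaB targets lie at the top with 13 of 23 called higher. Antigen presentation and interferon-stimulated genes follow with 15 of 18 and 21 of 39 called higher. Cadherins lie at the bottom with 8 of 15 called lower. Towards the lower end, p53 targets and cholesterol synthesis had 19 of 26 and 14 of 20 called lower.

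Together the lists held 889 tested genes, of which 581 were called (65.4%). This compares with 37.8% of all tested genes and 58.2% of those whose base mean reached 100. The list members were not limited by base mean. Where leaving out 1 library lowered a list's count by more than 1.5 times, the lowest count came without a knockout library, for some lists also without a wild-type one. The lists were chosen with earlier results of these data known, and a list's median carries no p of its own.

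Genes at the on and off ends were then followed into the knockout cells transfected with G3BP1. In the first experiment 83 genes had a mean above 200 normalised reads in knockout and under 10 in wild type, with medians of 359 and 369 in knockout, 2.97 and 3.04 in wild type and 170.2 and 159 in transfected cells. In the opposite class, 32 genes had medians of 2.58 and 3.40 in knockout, 321 and 314 in wild type and 147 and 148 in transfected cells. As a share of the way from the low genotype to the high one, the transfected mean had a median of 0.43 in the first class. In the opposite class this median was 0.47. The share lay between 20% and 80% for 66 of the 83 genes and for 30 of the 32. Why most genes of both classes lay partway was not tested. G3BP1 itself was at 19750.4 and 20046 in these transfected libraries. CAMK1, with no read in knockout, was at 183 and 208 in transfected cells, and KRT81 at 8118 and 9379. The first experiment's comparisons share these libraries, so no test is given between them. The classes hold regulators of cell fate, chosen here after their values were seen: GATA6 stood at 349 and 351 in knockout and 2.97 and 1.01 in wild type, the homeobox gene DLX2 at 199 and 202 in knockout and 1.98 and 5.07 in wild type, and CDKN2B, the inhibitor p15, at 681 and 641 in knockout and 0 and 1.01 in wild type. In the transfected cells GATA6 was at 126 and 84.1 and CDKN2B at 92.0 and 97.1, while DLX2, at 374 and 287, was above both knockout libraries. ZNF300, a zinc finger gene, rose to 1355 and 1419 from 2.97 and 4.05. Among genes lost, ADAMTS8, a protease, fell to 0 and 0 from 234 and 232.

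The second experiment compared its own G3BP1-transfected and untreated knockout cells, without wild-type libraries. G3BP1 there had a log2 fold change of 7.31 ± 0.040 (SE) for transfected over knockout cells in the authors' deposited table; in the first experiment that of knockout over transfected cells was -0.69. In the second experiment, 23% of the genes tested in the authors' deposited table were called higher and 19.1% lower after transfection. Of 4659 genes higher in knockout over wild type and tested there, 1569 were called lower after transfection (33.7%) and 1128 higher (24.2%). Of 4571 genes lower in knockout, 1700 were called higher (37.2%) and 967 lower (21.2%). For genes not called in knockout the shares were 12.5% lower and 16.9% higher. Among the 1573 genes higher in knockout by at least 1 on the log2 scale, 644 were lower after transfection (40.9%) and 179 higher, and the median was -0.64 in the authors' deposited table. Among the 1146 genes lower in knockout by at least 1 on the log2 scale, 258 were higher after transfection and 235 lower, and the median was -0.12 in the authors' deposited table. Of the 32 genes near 0 in knockout and read in wild type, 31 had a base mean under 10 over the second experiment's knockout and transfected libraries. The first experiment's transfected libraries read these genes. The exception was KRTAP2-3, with a base mean of 76.1 and a log2 fold change of 4.91 for transfected over knockout cells in the authors' deposited table. Only 6 genes of this class were tested there, and 2 were called higher and 0 lower. KRT81 had a base mean of 0.78 and NOS1 of 5 over the second experiment's libraries in the authors' deposited table. Of the 83 genes of the opposite class, none was under 10, and after transfection 35 were called lower and 11 higher. Several genes high in knockout, picked as examples, were lower after transfection. In the authors' deposited table their log2 fold changes were -4.42 for COL3A1, -3.25 for MFAP4, -2.52 for XAF1, -2.51 for PSMB9 and -0.92 for MXRA8. ICAM1 (0.67) and LINC01029 (0.25), also high in knockout, were higher after transfection. Of the abundant genes low in knockout named above, COL1A1 (-1.56) and MYH9 (-0.32) were lower still after transfection, and THBS1 was higher (1.57). By list, 24 of 34 tested interferon-stimulated genes and 13 of 18 genes of antigen presentation were lower after transfection, and 16 of 22 NF-kappaB targets were higher. Large shares of other lists moved too. Of 79 cytosolic ribosomal protein genes, 75 were higher and 0 lower, and of 27 immediate-early genes 20 were higher and 3 lower. Of 41 Wnt pathway genes, 28 were lower and 5 higher, and of 26 G2/M genes 18 were lower and 0 higher. The second experiment's table has its own size factors, so its base means compare with the first only in being near 0 or not.

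RNAs bound by G3BP1 were compared with those that differed in knockout. In the authors' deposited table of immunoprecipitate over input, 14% of tested genes were called with a log2 fold change of at least 1. Of the genes tested in both tables, 656 of 3998 called higher in knockout were enriched (16.4%), 862 of 4460 called lower (19.3%) and 1520 of 12325 not called (12.3%). Read from the other side, 21.6% of the enriched genes were higher in knockout, 28.4% lower and 50% not called, against 19.2%, 21.5% and 59.3% of all genes tested in both. The classes differ in abundance, with median base means of 1417 and 1423 for genes called higher and lower and 63.7 for genes not called, and the part of abundance in these shares was not tested. The immunoprecipitation came from kidney cells, so genes silent there could not be seen.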

How the data were processed

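Values came from 5 comparison tables made by the authors. Per the submitters' processing notes, reads were aligned with STAR 2.7.0f and compared with DESeq2 2.11.40.6; the genome build and the strand setting of the counting are not given in the sources used here. Per the labels, poly(A) RNA went into a kit that keeps strand. Each deposited table holds per gene a base mean (a signal in normalised reads), a log2 fold change with its SE, a Wald statistic (a score), a p-value and a Benjamini-Hochberg adjusted p-value, all as the authors made them and without values per library. The columns are named in the second experiment's table alone; in the others they were identified by that order and from their values. Calls are the authors' deposited adjusted p-value under 0.05.

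Reads per library were worked out from the base means of the first experiment's 3 tables, which are sums of whole reads over size factors: whole reads were recovered for 36705 of 36705 genes with a base mean above 0. They were recovered without replicate numbers, so the libraries are called a and b. Levels are these reads over the size factors; those of the transfected libraries were put on the same scale. Limma 3.58.1 (R 4.3.3; trend fit on log2 of normalised reads plus 1) served as second fit and to leave out each library in turn. With 1 library left in a genotype, that library is assumed to vary like the others. The fit was tested on simulated data. Counting intervals are exact at 95%, and floors use 3 reads.

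The 37 gene lists and the members were chosen with earlier results of these data known. Genes named by rule were G3BP1 and G3BP2, the 10 highest and 10 lowest called log2 fold changes with a base mean of at least 100 and a symbol, the 5 most abundant called genes with an absolute change of at least 1, and in each list the called members of highest and lowest change in each direction, with uncalled cell type markers; other genes were chosen after their values were seen. Of the gene rows, 61369 IDs were in the name table and 42045 had a symbol. RefSeq (GRCh38.p14) gave promoters and gene order. Alternatives tried were a stricter adjusted p, a minimum change, no filter, a base mean minimum, centred values, a robust spread, limma and leaving out libraries. Promoter windows are those of the table given; genes without a window were left out of the motif shares. Some list members are not reported here by name.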

Additional observations from a re-analysis of the deposited data

How the results depend on the processing

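The 9729 calls became 3205 with an absolute log2 fold change of at least 1 and 3432 with the statistics divided by their robust spread; higher calls went from 4742 to 1649 and 1609, lower calls from 4987 to 1556 and 1823, and called list members from 581 to 207 and 332. Limma without one library at a time gave 6223 to 8450 calls in all, 2741 to 4460 higher, 3386 to 4190 lower and 410 to 501 list members, the lowest without a knockout library. An adjusted p under 0.01 left 8116 calls, testing every gene with reads 9289, a base mean of at least 100 gave 8373 and centring 9734. Limma on all 4 libraries gave 12475. Of all the alternatives, only centring and limma could change the sign of a call. The share of calls that were higher was 48.7% and ran from 44.0% to 52.8%, and no call changed sign under any of these alternatives. Of the 151 called genes named by rule, 58 lost the call in at least 1 limma fit that left out a library, 3 of them with an absolute log2 fold change of at least 1 (AKR1C1, IFI27 and XAGE2). No paired analysis was possible because the recovered libraries carry no replicate number. Genes with under 4 reads in a genotype have no fold beyond a counting interval or a bound.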
